A study of Mus musculus with 12 samples.

Results

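The genes described here encode the chains of the collagens, and they were read in the lungs of newborn mice given a gold compound or saline and kept in high oxygen or room air. They are all rows of the deposited count table whose symbol is Col, a number, a and a number with nothing after it, and whose counts summed over the 12 libraries to at least 100. This gave 39 genes of the 44 such symbols, out of 23478 genes in the table. Col22a1 stood just inside the limit with 149 counts in all, and Col11a2 just outside it with 86. The other symbols left out were Col9a2, Col9a3, Col19a1 and Col9a1. The 39 genes comprised 10 fibrillar chains, 8 basement membrane chains and 21 others, and each of the 39 passed the low-count filter of the test, as did 15761 genes in all.

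Collagens are extracellular proteins whose chains wind around each other into a rope-like helix. Fibrillar collagens pack into the cables that give the airway wall, vessels and septa their tensile strength, and in lung they are made mainly by fibroblasts and smooth muscle. Type IV collagen instead forms the sheet-like network of basement membranes, including the thin shared membrane between alveolar epithelium and capillary, while type VI filaments, fibril-associated collagens and membrane-bound collagens link these structures to each other and to cells. High oxygen given to newborn rodents is a common model of the lung injury of premature infants, in which alveolar growth and the deposition of matrix are disturbed.

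C57/Bl6 mice were injected intraperitoneally on day 0 with aurothioglucose (ATG) at 25 mg/kg or with saline. ATG contains gold and blocks the antioxidant enzyme thioredoxin reductase. For the next 72 h the pups breathed either oxygen at over 95% or room air. The 4 groups were ATG with hyperoxia, saline with hyperoxia, ATG with room air and saline with room air, with 3 libraries each, made from whole lungs after removal of the lavage fluid. All groups shared the strain, and none carried a genetic change per the labels, which do not say whether a library came from 1 animal or a pool, or which animals were littermates. The p-values below therefore measure the spread between these libraries. In whole lung, fewer cells of a type and less RNA per cell cannot be told apart.

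The libraries held between 14331749 and 20486735 counts, and the collagen genes took 1.13% to 1.39% of them. Markers of alveolar type 2 cells were high in each library, with Sftpc at 5459 to 7792 CPM (counts scaled to a common library size with TMM normalization, the unit of every level below). Of the hyperoxia libraries, 2 were rich in heart transcripts, with Nppa at 1108 CPM in ATG hyperoxia library 2 and 270 CPM in saline hyperoxia library 2, against 1.85 to 3.55 CPM in the other 10. The 10 listed cardiomyocyte markers summed to 7104 and 3227 CPM in that pair, against 432 to 994 CPM elsewhere. The same pair was highest for the 5 mesothelium markers, at 351 and 338 CPM against 133 to 270 CPM elsewhere, and for the 5 adipocyte markers, at 14.9 and 6.64 CPM against 0.496 to 4.54 CPM. It is called heart-rich below. Saline hyperoxia library 1 held fetal muscle myosin Myh8 at 175 CPM. The 5 thymocyte markers summed to 54.5 and 19.8 CPM in saline hyperoxia libraries 2 and 3, against 1.23 to 10.3 CPM elsewhere. By their Xist and Y-linked transcripts, the 3 libraries of saline with room air came from males, whereas the ATG hyperoxia libraries were 2 male and 1 female, and the saline hyperoxia and ATG room air groups were each 1 male and 2 female.

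Per kilobase of transcript, the collagen pool of the newborn lung was made up mainly of types III, IV and I, followed by type VI. The length-scaled level, as a mean over the 12 libraries, was 336 CPM per kb for Col3a1, the only chain of type III collagen. It was 287 for Col4a2 and 275 for Col4a1, the chains of the common type IV network. It was 274 for Col1a2 and 202 for Col1a1, the chains of type I collagen. The type VI chains Col6a2, Col6a1 and Col6a3 followed at 193, 110 and 89.1 CPM per kb, and Col4a3, a chain of the mature alveolar basement membrane, ranked 9th of the 39 genes at 72.7. At the low end stood genes such as Col22a1, Col28a1 and Col20a1, at 0.0855, 0.252 and 0.28 CPM per kb. Between the lowest and highest library these 9 genes spanned 1.42-fold (Col4a2) to 1.65-fold (Col3a1). Over all 39 genes the span ran from 1.28-fold for Col18a1 to 26.5-fold for Col2a1.

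**Figure D1:**
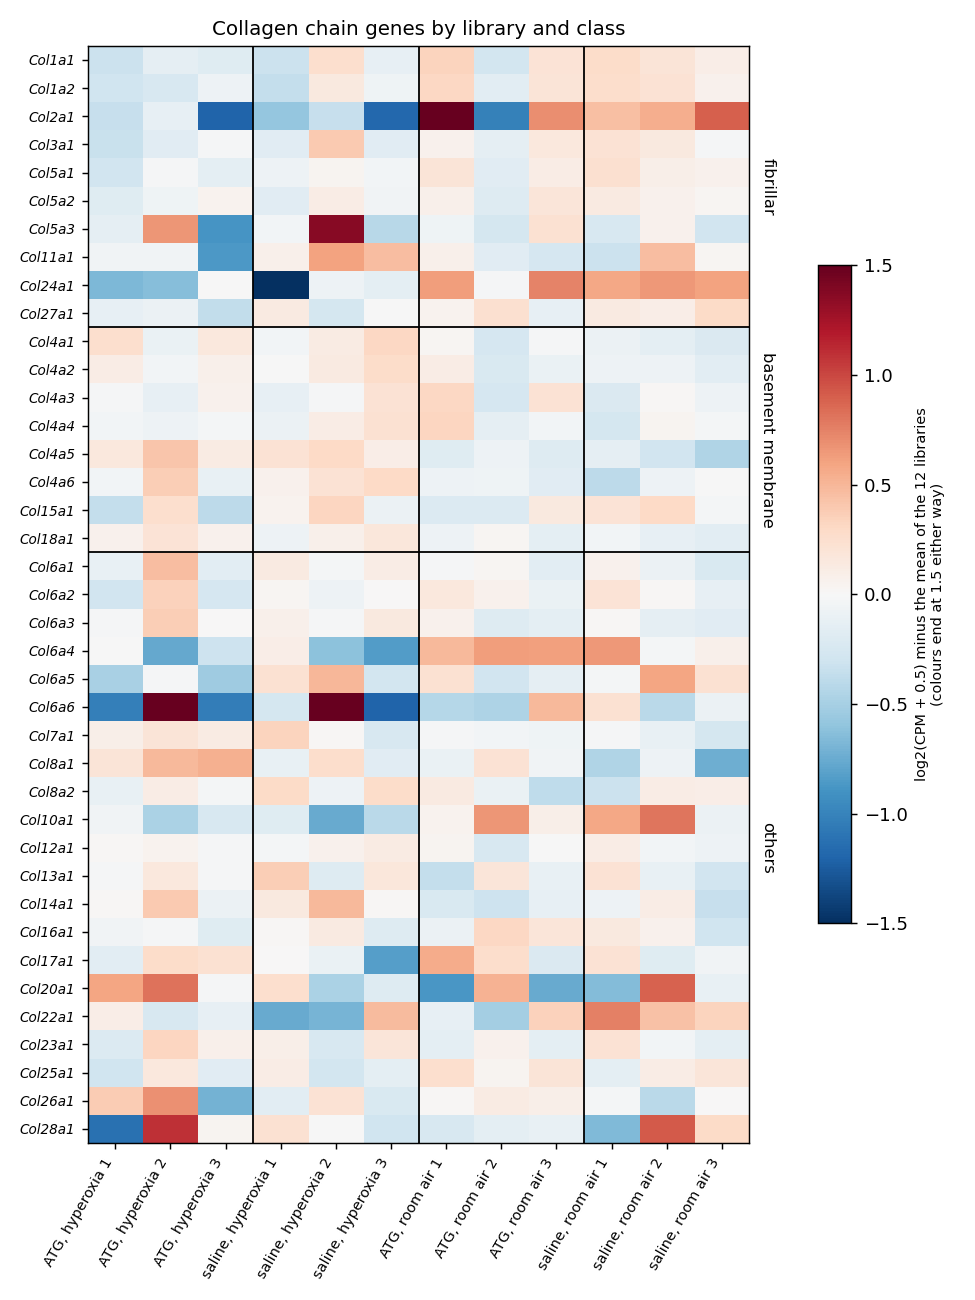
Each row is a collagen gene and each column a library, coloured by log2(CPM + 0.5) minus the mean of the 12 libraries, with colours ending at 1.5 in either direction and lines between groups and classes. The abundant fibrillar and type IV rows are pale, Col6a6 stands out in ATG hyperoxia library 2 and saline hyperoxia library 2, and Col24a1 is low in the hyperoxia columns.

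Hyperoxia was set against room air to ask how high oxygen moves the collagen genes, first averaged over both injections. In this comparison 3 collagen genes rose (Col4a5, Col4a1 and Col14a1) and 5 fell (Col1a2, Col24a1, Col2a1, Col6a4 and Col10a1) at an adjusted p under 0.05 by edgeR's quasi-likelihood test, with p-values adjusted over all tested genes. These 8 of 39, or 20.5%, stood beside 22.4% of all tested genes called (11% higher, 11.3% lower), so collagen genes were called about as often as genes in general. Whether the classes differ from each other was not tested. Of the 10 fibrillar genes 3 fell, none rose and 7 did not pass, with a median log2 fold change of -0.21. Of the 8 basement membrane genes 2 rose, none fell and 6 did not pass, with a median of 0.18. Both that rose were among the 6 type IV genes, of which none fell and 4 did not pass, with a median of 0.21. The median over all tested genes was -0.0028. Among the 21 others 1 rose, 2 fell and 18 did not pass, with a median of 0.08. Under the alternatives run, the fibrillar median lay between -0.28 and -0.17 and the type IV median between 0.18 and 0.28, while that of the others ran from -0.10 to 0.16. The count of lower fibrillar genes ran from 1 to 5 under these alternatives, and it was 5 without the pair of heart-rich libraries. Without that pair 8 of 39 collagen genes and 3199 of 15911 tested genes were called in either direction.

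Within each injection fewer genes passed. In mice given ATG, hyperoxia raised Col4a5 alone, or 1 of 39 collagen genes, where 11.7% of all tested genes were called (5.41% higher, 6.25% lower), and 7 had an unadjusted p under 0.05. In mice given saline it again raised Col4a5 alone, where 9.19% of all genes were called (4.7% higher, 4.5% lower), and 9 had an unadjusted p under 0.05. The count of 0 lower collagen genes in ATG became 3 with DESeq2 and 1 with limma-voom, and that in saline became 2 with DESeq2 and 1 with limma-voom. In either direction DESeq2 called 4 of 39 collagen genes in ATG and 3 in saline. It called 2356 and 1936 of all 15761 tested genes there. With limma-voom 2 collagen genes were called in each, where 1836 genes in ATG and 1439 in saline were called in all. The fibrillar median log2 fold change was -0.23 in ATG and -0.19 in saline, and the type IV median 0.15 in ATG and 0.27 in saline. The median of all 8 basement membrane genes was 0.15 in ATG and 0.21 in saline. Libraries of the compared groups did not overlap for 6 of 39 collagen genes in ATG (15.4%, against 27.6% of all tested genes, 13.7% higher and 13.9% lower) and for 8 in saline (20.5%, against 29.5%, 14.6% higher and 14.9% lower), so separation of 3 against 3 libraries was no more frequent among collagen genes than in general. No collagen gene passed the test of the interaction between injection and oxygen.

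**Figure D2:**
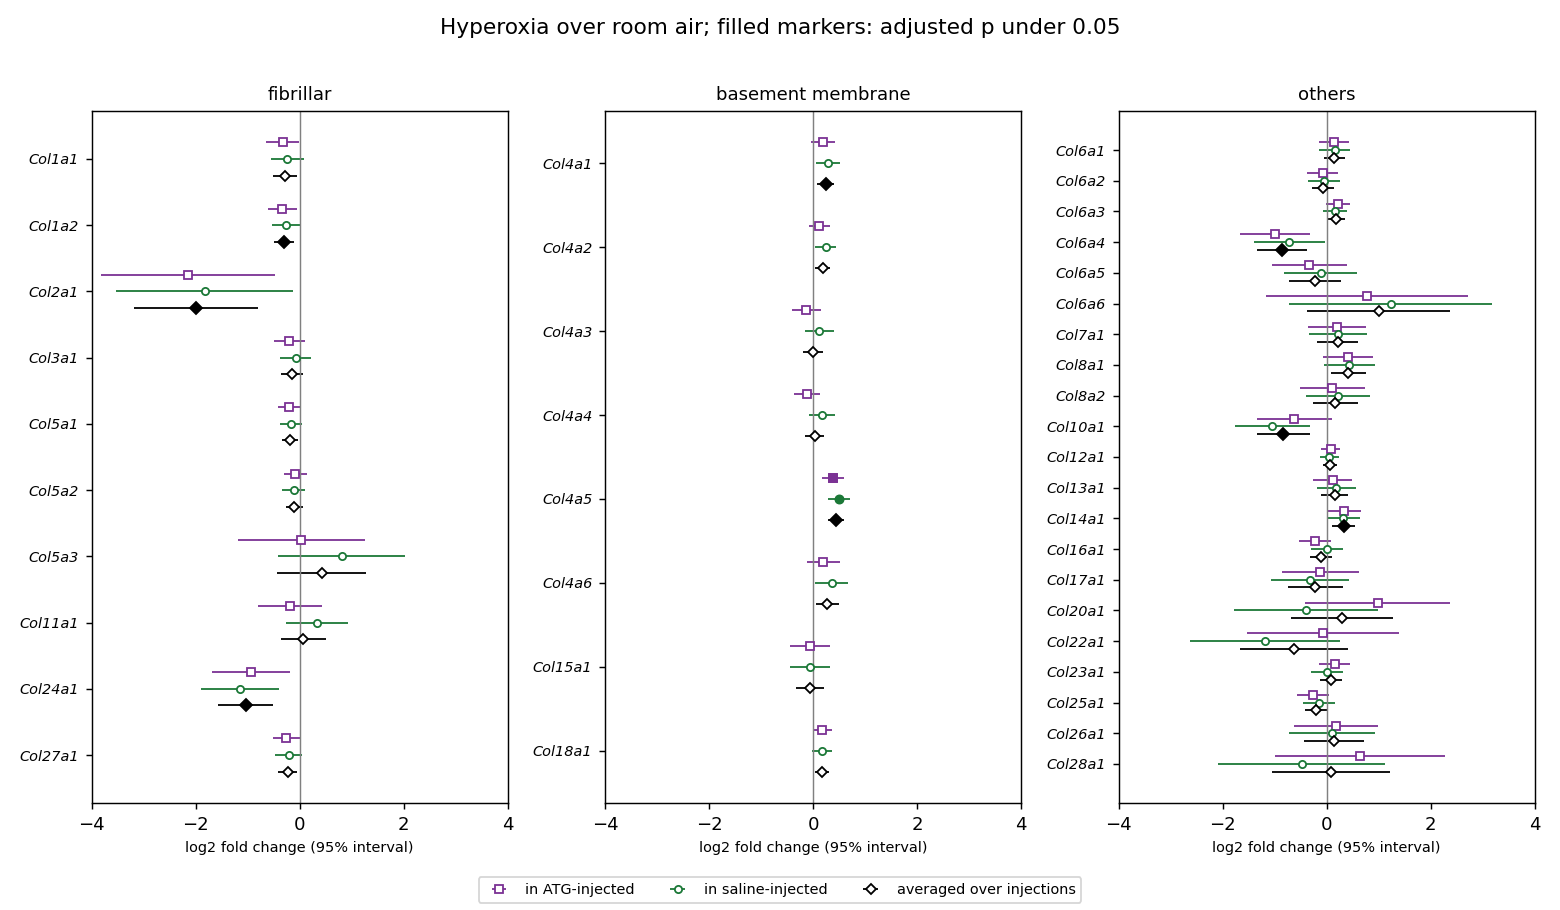
Log2 fold change of hyperoxia over room air for the 39 collagen genes, in panels for fibrillar, basement membrane and other chains, with 95% intervals from the edgeR fit. Squares are ATG-injected mice, circles saline-injected mice and diamonds the average, and filled markers have an adjusted p under 0.05. Only Col4a5 is filled in all 3 comparisons, and most fibrillar points lie left of 0.

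Type I collagen, the main cable-forming collagen of connective tissue, is built from Col1a1 and Col1a2 in a fixed proportion. Col1a2 (chromosome 6, 4505618 to 4541543 on the plus strand, protein-coding) was at 1176, 1222 and 1372 CPM in ATG hyperoxia libraries and at 1133, 1600.4 and 1388 CPM in saline hyperoxia libraries. It was at 1803, 1297 and 1661 CPM in ATG room air libraries and at 1735, 1688 and 1509 CPM in saline room air libraries. The groups overlapped, since saline hyperoxia library 2 was high and ATG room air library 2 low. Averaged over injections Col1a2 fell by 0.30 on the log2 scale (SE 0.09, adjusted p = 0.0309, edgeR), and it did not pass within ATG (-0.34, adjusted p = 0.117) or saline (-0.26, adjusted p = 0.259). The averaged call was marginal. It ended without any of ATG hyperoxia libraries 1 and 2, saline hyperoxia libraries 1 and 3, ATG room air libraries 1 and 3 or saline room air libraries 1 and 2 (log2 -0.29 to -0.23, adjusted p 0.0561 to 0.0939). Without the 3 heart- or muscle-rich libraries the averaged estimate was -0.26.

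Col1a1 (chromosome 11, 94936224 to 94953042 on the plus strand) moved alongside it at 943, 1074 and 1045 CPM in ATG hyperoxia and 942, 1403 and 1083 CPM in saline hyperoxia. It was at 1492, 979 and 1361 CPM in ATG room air and 1424, 1345 and 1269 CPM in saline room air. Its averaged log2 fold change was -0.28 (SE 0.11, adjusted p = 0.0719), short of the threshold. It passed without saline hyperoxia library 2 (-0.35, adjusted p = 0.0161) and without ATG room air library 2 (-0.35, adjusted p = 0.00996), which also brought both type I chains past the threshold within ATG (Col1a1 -0.47, Col1a2 -0.45). The ratio of Col1a1 to Col1a2 per kb stayed between 0.68 and 0.79 in all 12 libraries. Ratios of this kind are given as descriptions and were not tested.

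Col3a1 (chromosome 1, 45311538 to 45349706 on the plus strand), which forms the finer fibrils of vessels and airways, was at 1473, 1650 and 1828 CPM in ATG hyperoxia and 1648, 2436 and 1649 CPM in saline hyperoxia. It was at 1937, 1688 and 2074 CPM in ATG room air and 2159, 2057 and 1835 CPM in saline room air. The highest of all 12 values came from a hyperoxia library, the heart-rich saline hyperoxia library 2. The averaged log2 fold change was -0.14 (SE 0.10, adjusted p = 0.34), and without that library it was -0.23 (adjusted p = 0.036). The type V chains Col5a1 and Col5a2, which set fibril diameter, had averaged log2 fold changes of -0.18 (adjusted p = 0.0838) and -0.10 (adjusted p = 0.362), and neither passed. Col5a1 passed without ATG room air library 2 (-0.22, adjusted p = 0.0198), and its saline groups did not overlap.

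Col24a1, a fibrillar chain known from developing bone and cornea, fell most clearly among the fibrillar genes. It lies on chromosome 3, 145292472 to 145552013 on the plus strand. It was at 5.52, 5.66 and 9.06 CPM in ATG hyperoxia and 2.57, 8.64 and 8.16 CPM in saline hyperoxia, against 14.3, 8.95 and 15.6 CPM in ATG room air and 13.9, 14.5 and 14.1 CPM in saline room air. The saline groups were separate, and in the ATG groups the highest hyperoxia library barely exceeded the lowest room air library. Averaged over injections it fell by 1.04 on the log2 scale (SE 0.25, adjusted p = 0.00739, edgeR). The call held in all 20 alternatives run, with log2 values from -1.17 to -0.79, and the fall was 0.79 without the 3 heart- or muscle-rich libraries.

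Col2a1, the fibrillar chain of cartilage, fell by 1.99 on the log2 scale (SE 0.56, adjusted p = 0.0184). Its levels were very low, at 0.938, 1.18 and 0.296 CPM in ATG hyperoxia and 0.72, 0.94 and 0.304 CPM in saline hyperoxia, against 7.83, 0.404 and 2.46 CPM in ATG room air and 1.99, 2.17 and 2.89 CPM in saline room air. The saline groups did not overlap, but ATG room air library 2 lay among the hyperoxia values. Without ATG room air library 1, the highest, the estimate was -1.32 and did not pass (adjusted p = 0.0869), nor did it pass with limma-voom (-1.74, adjusted p = 0.0808). The 10 cartilage markers summed to 68.9 to 120 CPM in hyperoxia and 55.5 to 68.1 CPM in room air, of which Hapln1 alone made 53.0 to 116 CPM, and the defining marker Acan was at or under 0.986 CPM in each library, while Ucma, Snorc and Epyc were at 0 in 10 or 11 libraries. The part of cartilage tissue in the Col2a1 result was not tested.

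The remaining fibrillar chains did not pass. Col27a1 had an averaged log2 fold change of -0.23 (adjusted p = 0.0688), and it passed without ATG room air library 3 (-0.27, adjusted p = 0.048). Col11a1 stood at 0.07 (adjusted p = 0.844). Col5a3, a minor type V chain, had 0.42 (adjusted p = 0.506), with its highest levels, 3.25 and 5.58 CPM, in the heart-rich ATG hyperoxia library 2 and saline hyperoxia library 2, against 0.788 to 2.28 CPM elsewhere. The part of heart or other attached tissue in these values was not tested.

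Type IV collagen has 6 chains encoded in 3 pairs of genes that lie head to head. Col4a1 and Col4a2 make the network present in all basement membranes, Col4a3, Col4a4 and Col4a5 make that of the alveolar and kidney filtration membranes, and Col4a5 and Col4a6 that of smooth muscle and some epithelia. In the GENCODE vM21 annotation the start sites of Col4a1 and Col4a2 on chromosome 8 overlap by 22 bases, those of Col4a4 and Col4a3 on chromosome 1 lie 126 bases apart, and those of Col4a6 and Col4a5 on chromosome X 1308 bases apart.

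Col4a5 (chromosome X, 141475370 to 141689236 on the plus strand, protein-coding) gave the firmest difference among the 39 genes in the fit of all 12 libraries. It was at 149, 178 and 145 CPM in ATG hyperoxia and 154, 163 and 142 CPM in saline hyperoxia. It was at 117, 126 and 116 CPM in ATG room air and 120, 109 and 97.1 CPM in saline room air. The group means were 157 ± 18.0 CPM in ATG hyperoxia, 153 ± 10.4 in saline hyperoxia, 120.0 ± 5.57 in ATG room air and 109 ± 11.7 in saline room air (SD, n = 3 each). All 6 hyperoxia libraries lay above all 6 room air libraries, which held for no other collagen gene (1 of 39, against 11% of all tested genes with no overlap, 5.41% higher and 5.61% lower). Averaged over injections it rose by 0.44 on the log2 scale, or 1.36-fold (SE 0.07, adjusted p = 0.000358, edgeR). It rose by 0.39 in ATG (adjusted p = 0.0185) and by 0.49 in saline (adjusted p = 0.00638).

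The averaged call for Col4a5 held in all 20 alternatives run, with log2 values of 0.36 to 0.49. Since the gene is X-linked and sex was uneven between groups, the fit with sex as a term bears on it directly, and it gave 0.45 (adjusted p = 0.000642). The call within ATG ended without ATG hyperoxia library 2 or ATG room air library 1 or 3 (log2 0.31 to 0.39, adjusted p 0.0573 to 0.0642). It also ended without the heart-rich pair (0.31, adjusted p = 0.0626), and the estimate within ATG was 0.32 without the 3 heart- or muscle-rich libraries. The call within saline ended without the 3 heart- or muscle-rich libraries (0.40, adjusted p = 0.0848), a setting that leaves 1 saline hyperoxia library.

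Its neighbour Col4a6 (chromosome X, 141165403 to 141474095 on the minus strand) was at 19.3, 25.7 and 18.4 CPM in ATG hyperoxia and 20.7, 23.3 and 24.5 CPM in saline hyperoxia. It was at 18.8, 19.0 and 17.5 CPM in ATG room air and 15.1, 18.8 and 19.7 CPM in saline room air. The saline groups did not overlap and the ATG groups did, and the averaged log2 fold change of 0.27 did not pass (SE 0.11, adjusted p = 0.0818). It passed without ATG hyperoxia library 3 (0.33, adjusted p = 0.0483). Col4a5 exceeded Col4a6 per kb by 5.01- to 8.14-fold in each library. The sequences between this pair are shown because the result on type IV collagen turns on Col4a5 and because its promoter faces that of a gene at a much lower level. They are from RefSeq on GRCm38.p6 and end just upstream of the RefSeq start of each gene, at chrX:141475169-141475369 on the plus strand and chrX:141474096-141474326 on the minus strand, written 5′ to 3′. Both strands were searched for the CCAAT motif, for the GC box with the letters GGGCGG, and for the TATA box with the letters TATAAA. Capitals mark the only match in this pair, a CCAAT in the Col4a5 sequence.
Col4a5: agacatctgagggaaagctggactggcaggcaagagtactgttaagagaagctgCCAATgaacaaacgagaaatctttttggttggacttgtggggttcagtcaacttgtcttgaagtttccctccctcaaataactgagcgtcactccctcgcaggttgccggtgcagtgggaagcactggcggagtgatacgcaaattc
Col4a6: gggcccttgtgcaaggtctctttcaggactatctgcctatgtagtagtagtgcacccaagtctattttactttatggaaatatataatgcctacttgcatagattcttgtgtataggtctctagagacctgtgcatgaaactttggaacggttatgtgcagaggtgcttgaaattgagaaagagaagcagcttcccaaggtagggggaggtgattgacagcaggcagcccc
Over the 250 bases upstream of 32851 annotated starts, CCAAT was found in 33.8%, GGGCGG in 32.7% and TATAAA in 12.4%, so such a match is common. The sequences shown are the longest stretch of each gene's own 250-base window that lies outside annotated exons and collagen gene spans, and all but that of Col24a1 are shorter than the window. The full windows held a CCAAT and a GC box for Col4a5, a GC box for Col4a6, a CCAAT and a GC box for Col1a2 and none of the 3 motifs for Col24a1. The Col4a5 and Col4a6 sequences held 49.8% and 45.5% G and C. For comparison among genes that fell, the matching sequence of Col1a2 (chr6:4505370-4505492, plus strand, ending at the GENCODE vM21 start) held 2 matches of GGGCGG, in capitals, and that of Col24a1 (chr3:145292222-145292471, plus strand) held none of the 3 motifs.
Col1a2: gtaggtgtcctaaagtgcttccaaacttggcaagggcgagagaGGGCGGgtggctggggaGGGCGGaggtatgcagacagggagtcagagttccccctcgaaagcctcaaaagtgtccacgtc
Col24a1: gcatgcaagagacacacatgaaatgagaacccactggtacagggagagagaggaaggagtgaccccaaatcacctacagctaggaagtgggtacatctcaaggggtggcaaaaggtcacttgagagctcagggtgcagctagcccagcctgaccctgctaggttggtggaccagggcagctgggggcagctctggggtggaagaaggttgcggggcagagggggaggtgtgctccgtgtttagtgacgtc

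Col4a1 (chromosome 8, 11198423 to 11312889 on the minus strand) was at 2142, 1684 and 2015 CPM in ATG hyperoxia and 1758, 1961 and 2232 CPM in saline hyperoxia. It was at 1843, 1518 and 1779 CPM in ATG room air and 1694, 1626 and 1547 CPM in saline room air. The saline groups did not overlap, whereas the ATG groups did, through the low ATG hyperoxia library 2. Averaged over injections it rose by 0.24 on the log2 scale (SE 0.08, adjusted p = 0.0366, edgeR). The call ended without ATG hyperoxia library 1 or 3, saline hyperoxia library 3 or saline room air library 2 or 3 (log2 0.20 to 0.25, adjusted p 0.0594 to 0.0818). Without the 3 heart- or muscle-rich libraries, a setting that leaves 1 saline hyperoxia library, the averaged rise was 0.39. In that setting Col4a1 rose by 0.48 in saline and 0.31 in ATG. Col4a5 rose there by 0.36 averaged, 0.40 in saline and 0.32 in ATG.

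Col4a2 (chromosome 8, 11312805 to 11449287 on the plus strand) was at 1995, 1794 and 1934 CPM in ATG hyperoxia and 1827, 2015 and 2222 CPM in saline hyperoxia, against 1981, 1565 and 1721 CPM in ATG room air and 1743, 1741 and 1644 CPM in saline room air. The saline groups were separate, and the ATG groups overlapped through the high ATG room air library 1. Its averaged log2 fold change of 0.18 did not pass (SE 0.07, adjusted p = 0.0655). It passed without ATG hyperoxia library 2 (0.21, adjusted p = 0.0435), saline hyperoxia library 1 (0.23, adjusted p = 0.0288) or ATG room air library 1 (0.24, adjusted p = 0.0171). The treatment of strand in counting is not given in the sources used here, so reads in the 22 shared bases cannot be assigned to either gene. Col4a1 and Col4a2 stayed near parity per kb, at ratios of 0.91 to 1.05 across the libraries.

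Col4a3 and Col4a4, the partners of Col4a5 in the alveolar network, showed no such difference. Col4a3 (chromosome 1, 82586921 to 82722059 on the plus strand) was at 611, 567 and 647 CPM in ATG hyperoxia and 567, 609 and 716 CPM in saline hyperoxia, against 769, 519 and 715 CPM in ATG room air and 529, 623 and 587 CPM in saline room air. Col4a4 (chromosome 1, 82448419 to 82587034 on the minus strand) was at 227, 223 and 228 CPM in ATG hyperoxia and 220.1, 253 and 275 CPM in saline hyperoxia, against 292, 213 and 227 CPM in ATG room air and 194, 241 and 229 CPM in saline room air. The groups of both genes overlapped widely. The averaged log2 fold changes were -0.01 for Col4a3 (95% interval -0.20 to 0.19) and 0.03 for Col4a4 (-0.15 to 0.21), intervals that lie below the estimate of 0.44 for Col4a5. Whether the pairs differ from each other in response was not tested.

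Col15a1 and Col18a1 encode basement membrane collagens with carbohydrate side chains, and the end fragment of Col18a1 is endostatin, an inhibitor of vessel growth. Col18a1 was at 68.1, 75.3 and 68.6 CPM in ATG hyperoxia and 62.2, 69.0 and 73.9 CPM in saline hyperoxia, against 62.0, 66.7 and 59.2 CPM in ATG room air and 63.3, 60.2 and 58.7 CPM in saline room air. The ATG groups did not overlap and the saline groups did. The averaged log2 fold change of 0.17 missed the threshold (SE 0.06, adjusted p = 0.0603), and it passed without saline hyperoxia library 1 (0.21, adjusted p = 0.0301), without ATG room air library 2 (0.21, adjusted p = 0.03) and with sex as a term (0.19, adjusted p = 0.0298). Col15a1 was at 23.2, 35.7 and 22.6 CPM in ATG hyperoxia and 31.0, 37.4 and 28.0 CPM in saline hyperoxia, against 25.8, 25.8 and 33.1 CPM in ATG room air and 34.6, 36.7 and 29.3 CPM in saline room air. Its groups overlapped throughout, with an averaged log2 fold change of -0.06 (adjusted p = 0.785).

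**Figure D3:**
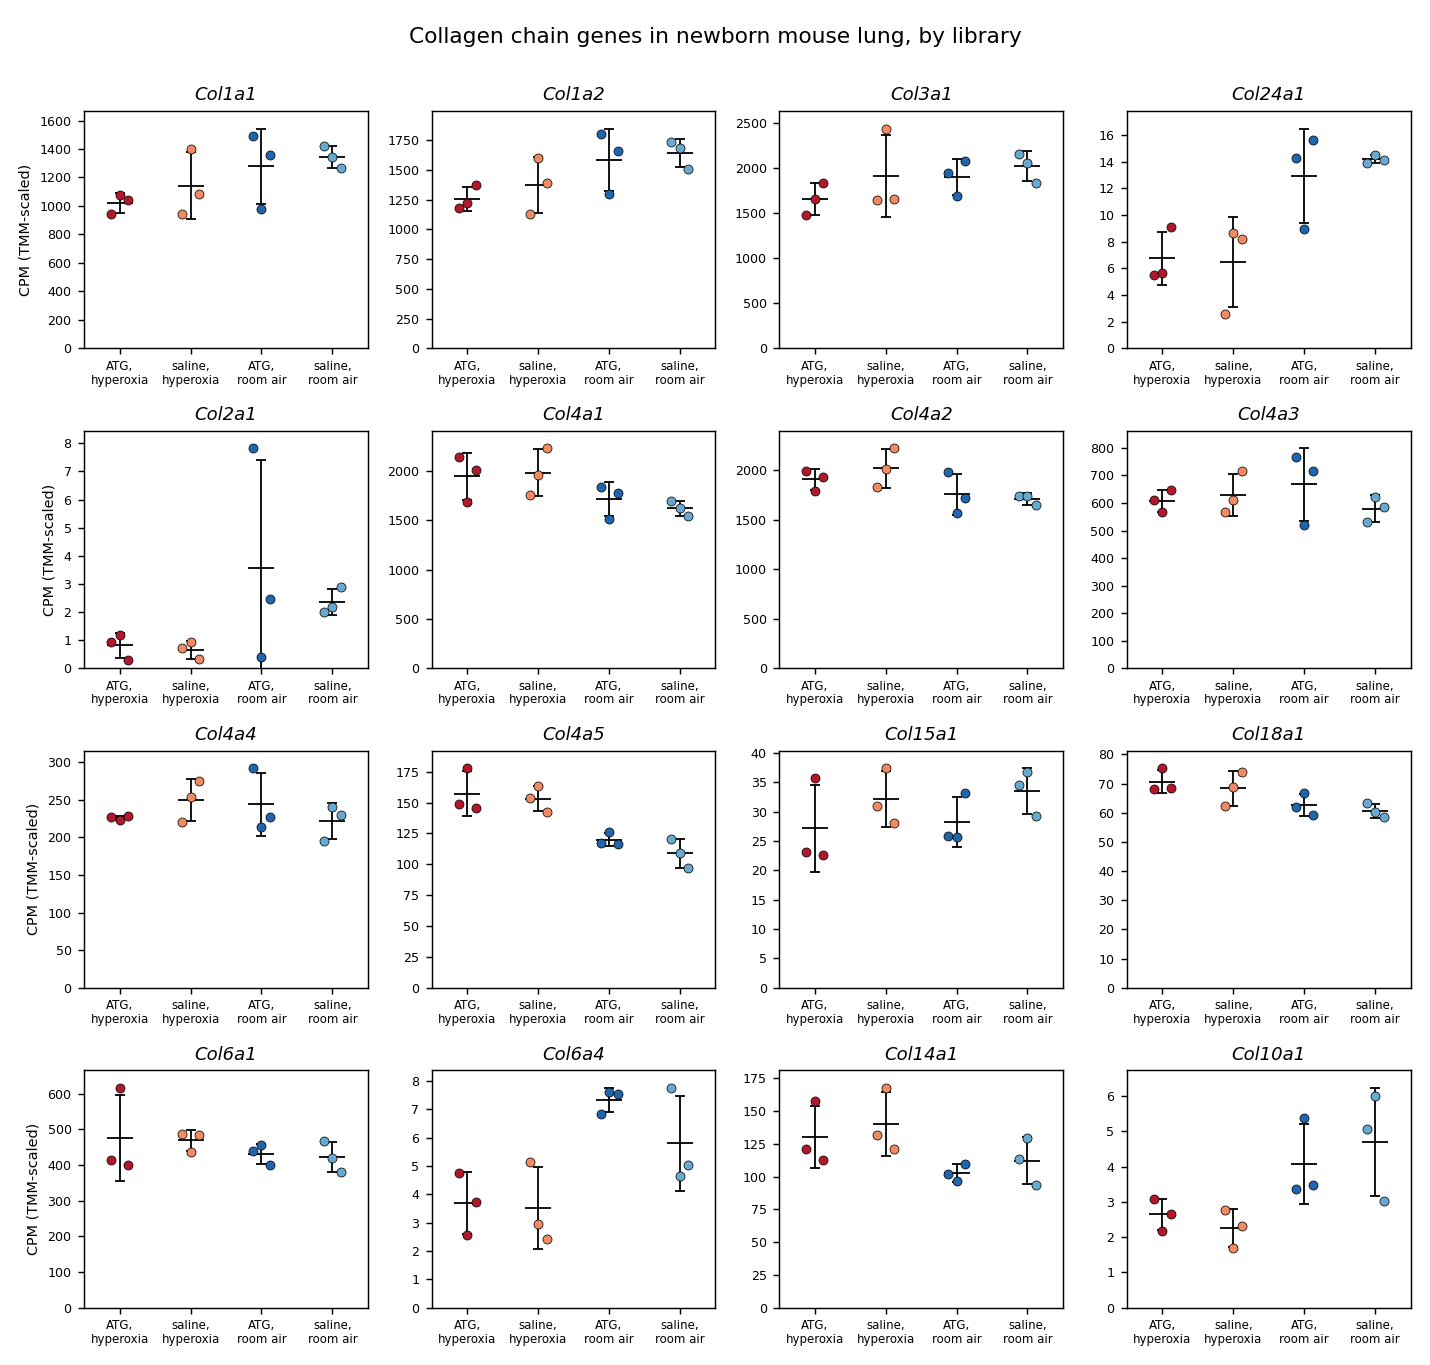
CPM of 16 collagen genes in each library, in 4 groups of 3, with the ATG group left of the saline group and hyperoxia left of room air; points are libraries, horizontal bars the group mean and whiskers 1 SD, and each axis starts at 0. For Col4a5 the hyperoxia libraries, at 142 to 178 CPM, all stand above the room air libraries, at 97.1 to 126 CPM, while for each of the other genes hyperoxia and room air libraries overlap across the injections.

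The balance of the common type IV chains and the type I chains was also read within each library. The summed level per kb of Col4a1 and Col4a2 over that of Col1a1 and Col1a2 was 1.67, 1.30 and 1.40 in ATG hyperoxia and 1.48, 1.14 and 1.54 in saline hyperoxia. It was 0.99, 1.16 and 0.99 in ATG room air and 0.93, 0.95 and 0.99 in saline room air. The saline groups and the ATG groups were each separate, and across injections only saline hyperoxia library 2 fell below ATG room air library 2. This ratio combines chains already described in the same libraries, so its separation adds no evidence beyond theirs, and it was not tested. The 9 lung fibroblast markers listed summed to 7064 to 8569 CPM in hyperoxia and 8791 to 10090 CPM in room air. Mfap4 alone made 4778 to 5925 CPM of this in hyperoxia and 6063 to 7323 CPM in room air. Of the 9 markers 3 fell, none rose and 6 did not pass, beside 11.3% of all tested genes lower. Of the 6 alveolar type 1 cell markers 4 rose, none fell and 2 did not pass, beside 11% of all tested genes higher. The 7 lung endothelium markers held 2 that rose and 1 that fell, with a median log2 fold change of -0.04. Among the 6 pericyte markers none rose and 2 fell, with a median of -0.13. Among the 6 alveolar type 2 cell markers 1 rose and 1 fell, with a median of 0.01. The part of cell composition in the ratio was not tested.

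**Figure D4:**
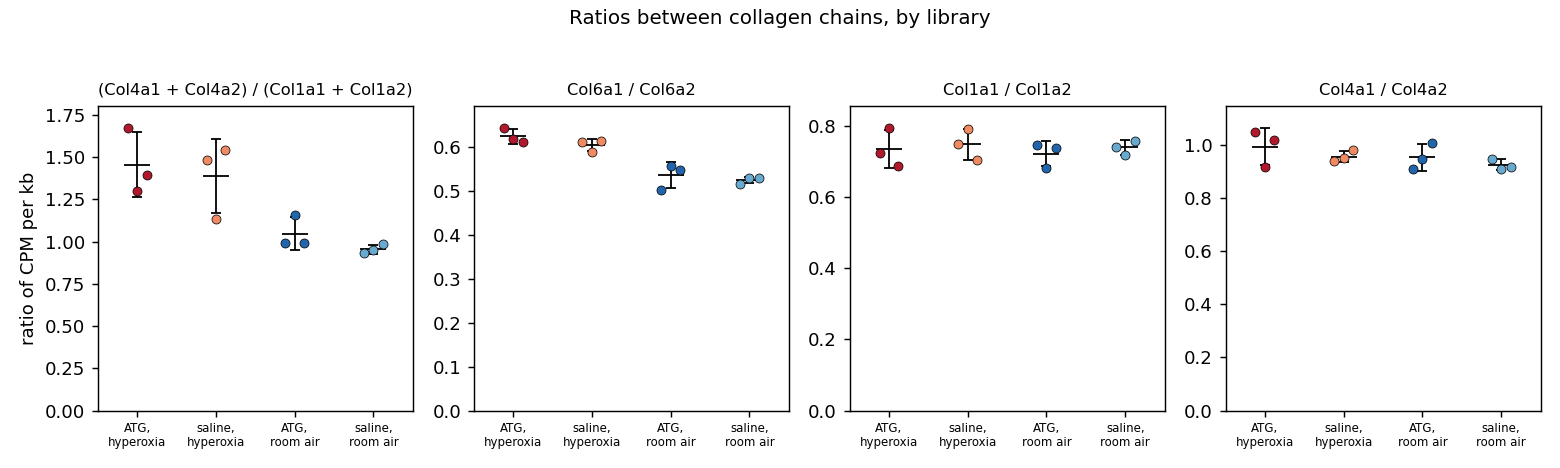
Ratios of CPM per kb between collagen chains in each library, by group, with points for libraries, horizontal bars for means and whiskers for 1 SD, and axes from 0. The type IV to type I ratio is 1.14 to 1.67 in hyperoxia and 0.93 to 1.16 in room air, the Col6a1 to Col6a2 ratio is separate between hyperoxia and room air, and the other ratios overlap.

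Type VI collagen forms the beaded filaments around cells and is built from Col6a1, Col6a2 and 1 of the remaining chains. Col6a1 (chromosome 10, 76708792 to 76726044 on the minus strand) was at 413, 617 and 401 CPM in ATG hyperoxia and 489, 437 and 484 CPM in saline hyperoxia, against 440, 456 and 402 CPM in ATG room air and 466, 419 and 381 CPM in saline room air. The groups overlapped and the averaged log2 fold change was 0.15 (adjusted p = 0.307), with -0.07 for Col6a2 (adjusted p = 0.691). Col6a3 had 0.19 (adjusted p = 0.0872), and it passed without ATG room air library 1 (0.24, adjusted p = 0.0398). The ratio of Col6a1 to Col6a2 per kb was nonetheless 0.64, 0.62 and 0.61 in ATG hyperoxia and 0.61, 0.59 and 0.61 in saline hyperoxia, against 0.50, 0.56 and 0.55 in ATG room air and 0.52, 0.53 and 0.53 in saline room air. All 6 hyperoxia ratios exceeded all 6 room air ratios. This separation was noticed in the data and was not tested.

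The chains that can replace Col6a3 were low. Col6a4 was at 4.74, 2.58 and 3.74 CPM in ATG hyperoxia and 5.15, 2.94 and 2.44 CPM in saline hyperoxia, against 6.84, 7.60 and 7.55 CPM in ATG room air and 7.74, 4.65 and 5.02 CPM in saline room air. The ATG groups did not overlap, and the saline groups overlapped through saline hyperoxia library 1. It fell by 0.85 on the log2 scale averaged over injections (SE 0.22, adjusted p = 0.0129), and the call held in all 20 alternatives, the nearest to the threshold being that without the heart-rich pair (-0.68, adjusted p = 0.0489). Col6a6 was at 1.43, 14.1 and 1.43 CPM in ATG hyperoxia and 2.78, 19.0 and 1.22 CPM in saline hyperoxia, against 2.43, 2.35 and 5.03 CPM in ATG room air and 4.11, 2.48 and 3.20 CPM in saline room air. Its high values were those of the heart-rich libraries, which were also highest for adipocyte and mesothelium markers, and the part of these tissues was not tested. Its averaged estimate of 1.00 (SE 0.64, adjusted p = 0.297) became -1.28 (adjusted p = 0.0329) without the 3 heart- or muscle-rich libraries, so no direction is drawn from it.

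Of the fibril-associated collagens, which decorate the surface of fibrils, Col14a1 rose. It was at 121, 157 and 113 CPM in ATG hyperoxia and 132, 168 and 121 CPM in saline hyperoxia, against 102, 96.3 and 109.7 CPM in ATG room air and 113, 129.7 and 93.9 CPM in saline room air. The ATG groups did not overlap and the saline groups did, and the highest value in each hyperoxia group was that of its heart-rich library. Averaged over injections the rise was 0.33 on the log2 scale (SE 0.10, adjusted p = 0.0321, edgeR). It ended without ATG hyperoxia library 2, saline hyperoxia library 2, ATG room air library 1 or 2 or saline room air library 3 (log2 0.26 to 0.34, adjusted p 0.051 to 0.0701), and it was 0.19 without the heart-rich pair (adjusted p = 0.118). Without the 3 heart- or muscle-rich libraries the estimate for Col14a1 was 0.17. Col12a1, its close relative, had 0.07 (95% interval -0.06 to 0.20, adjusted p = 0.471).

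Of the short-chain collagens, Col10a1, known from the hypertrophic cartilage of growth plates, fell by 0.83 on the log2 scale (SE 0.24, adjusted p = 0.0203). It was at 3.09, 2.19 and 2.66 CPM in ATG hyperoxia and 2.78, 1.70 and 2.31 CPM in saline hyperoxia, against 3.35, 5.38 and 3.47 CPM in ATG room air and 5.07, 6.02 and 3.01 CPM in saline room air. The groups were separate within each injection, and across injections saline room air library 3 fell below ATG hyperoxia library 1. The call ended without ATG room air library 2 or saline room air library 2 (log2 -0.71 to -0.69, adjusted p 0.0558 to 0.0662) and without the heart-rich pair (-0.68, adjusted p = 0.0821). Without the 3 heart- or muscle-rich libraries the estimate for Col10a1 was -0.74. In GENCODE vM21 its exons share 18 bases with the protein-coding gene Nt5dc1 on the opposite strand. Reads there cannot be assigned without strand, and Nt5dc1 held 3872 counts in all, against 678 for Col10a1. Col8a1, a chain of vessel and eye membranes, had an averaged log2 fold change of 0.42 (adjusted p = 0.0778), and it passed without saline room air library 2 (0.53, adjusted p = 0.0342). None of the 4 transmembrane chains passed, with averaged log2 fold changes from -0.22 for Col17a1 to 0.15 for Col13a1, and Col7a1, the anchoring fibril chain, had 0.21 (adjusted p = 0.466).

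ATG was set against saline to ask whether the drug moves the same genes. In hyperoxia no collagen gene was called (edgeR, 0 of 39, where 0.00634% of all tested genes were called), with 1 at an unadjusted p under 0.05. In room air none was called (0% of all tested genes) and none had an unadjusted p under 0.05. Averaged over both oxygen conditions none was called (0.0444% of all genes, 0.0381% higher and 0.00634% lower), with 2 at an unadjusted p under 0.05, and the interaction gave none (0% of all genes) at either threshold. DESeq2 and limma-voom called no collagen gene in these 4 comparisons either, and neither did any edgeR fit that left out 1 library.

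The intervals show how much change could have gone unseen. In the comparison averaged over oxygen, the 95% interval lay within 1.5-fold either way for 27 of 39 genes and within 2-fold for 33. For Col1a1 the averaged log2 fold change of ATG over saline was -0.12 (95% interval -0.34 to 0.11), for Col3a1 -0.15 (-0.36 to 0.06), for Col4a1 0.03 (-0.14 to 0.19) and for Col4a5 0.09 (-0.06 to 0.24). The genes with an unadjusted p under 0.05 were Col8a1, at 0.44 (0.10 to 0.79, adjusted p = 0.433), and Col11a1, at -0.48 (-0.90 to -0.05, adjusted p = 0.535). The genes whose intervals reached past 2-fold were Col2a1, Col5a3, Col6a6, Col20a1, Col22a1 and Col28a1, all at low levels. For the interaction, the interval lay within 2-fold for 26 genes and within 1.5-fold for 18, so a modest difference in the oxygen response between ATG and saline was not detectable for many genes. These comparisons use the same 12 libraries as those of hyperoxia with room air.

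**Figure D5:**
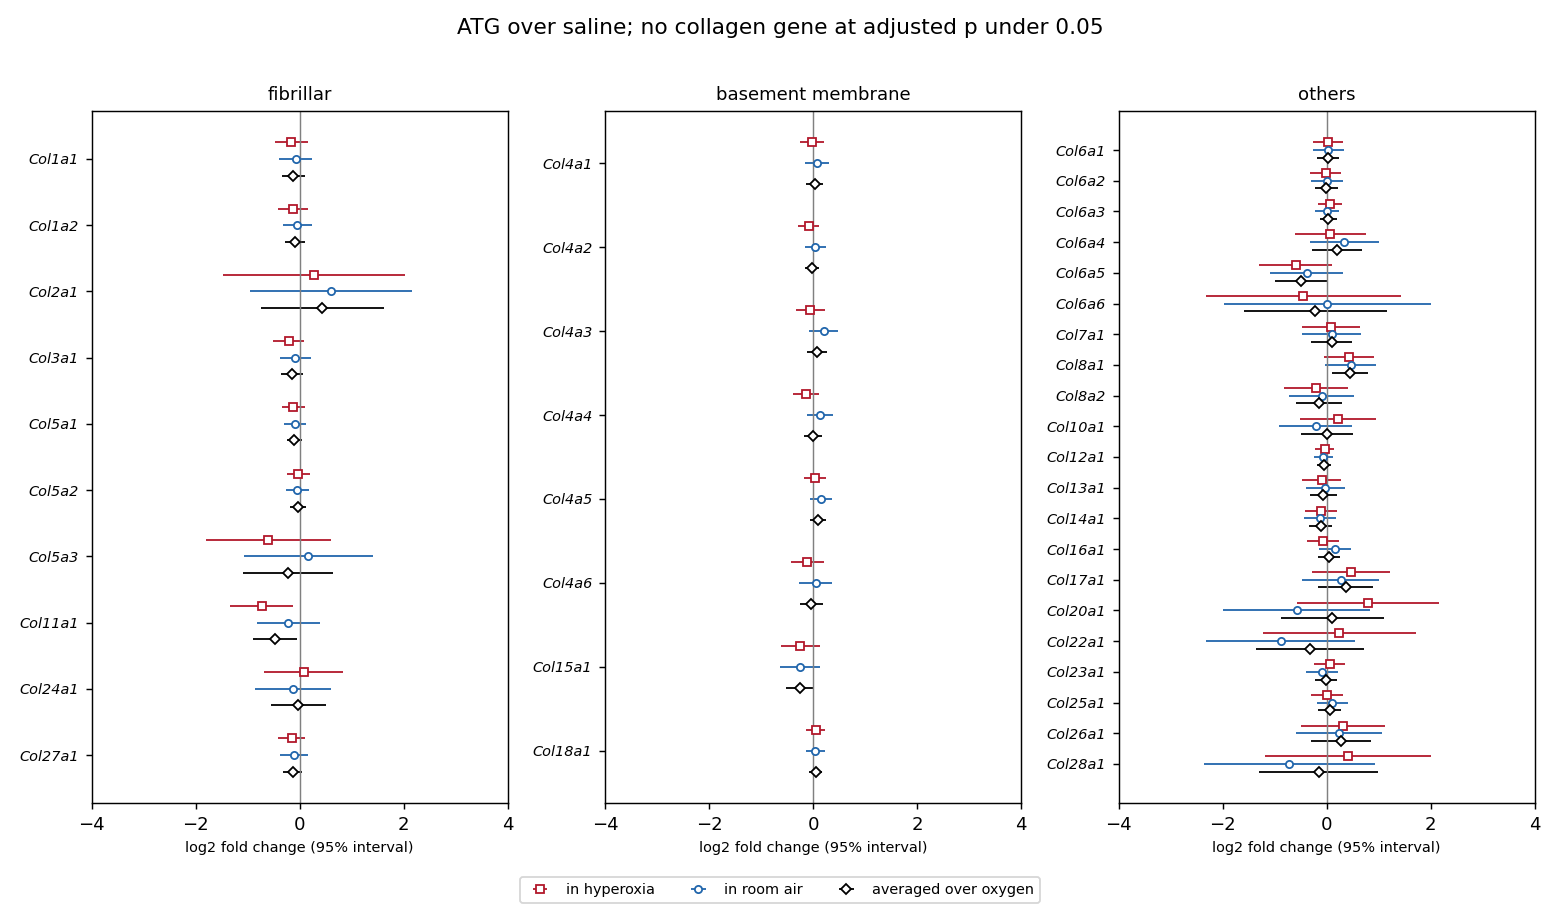
Log2 fold change of ATG over saline for the 39 collagen genes by class, with 95% intervals from the edgeR fit, as squares in hyperoxia, circles in room air and diamonds averaged over oxygen. No marker is filled, since no gene had an adjusted p under 0.05, and the longest intervals are those of low genes such as Col6a6, Col2a1 and Col28a1.

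Collagen chains need enzymes to fold, trim and cross-link them, and these partner genes were read in the same fit, averaged over injections, where 22.4% of all tested genes were called. Of 22 folding and modifying enzymes 3 rose and 7 fell, with a median log2 fold change of -0.05. P4ha1, a catalytic subunit of the enzyme that hydroxylates proline, was at 56.8, 65.8 and 55.3 CPM in ATG hyperoxia and 61.5, 58.0 and 63.4 CPM in saline hyperoxia, against 35.5, 41.6 and 37.9 CPM in ATG room air and 39.8, 43.9 and 40.8 CPM in saline room air. The hyperoxia libraries all lay above the room air libraries, and it rose by 0.59 on the log2 scale (adjusted p = 3.38e-05, edgeR). Its partner subunit P4hb fell by 0.31 (adjusted p = 0.000363). The alternative catalytic subunit P4ha3 fell by 0.70 (adjusted p = 0.00207), and P4ha2 did not pass (0.07, adjusted p = 0.658). Lepre1, the prolyl 3-hydroxylase now named P3h1, fell by 0.49 (adjusted p = 0.000181), and the chaperone Fkbp10 by 0.27 (adjusted p = 0.00128). For P4hb, Lepre1 and Fkbp10 the hyperoxia libraries all lay below the room air libraries. Of all tested genes 11% had no overlap between the oxygen conditions (5.41% higher, 5.61% lower).

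Of 7 tested procollagen-processing genes 2 fell and none rose, with a median of -0.07. These were Bmp1, the protease that trims the C-terminal end of fibrillar chains, which fell by 0.44 (adjusted p = 0.00259), and Adamts14, which trims the N-terminal end, by 0.63 (adjusted p = 0.0032). Of 7 cross-linking enzymes 2 rose and 3 fell, with a median of -0.15. Loxl4 was at 14.6, 12.6 and 12.8 CPM in ATG hyperoxia and 12.4, 13.0 and 17.5 CPM in saline hyperoxia, against 7.04, 8.81 and 5.81 CPM in ATG room air and 8.08, 6.83 and 6.72 CPM in saline room air. Every hyperoxia library exceeded every room air library, and Loxl4 rose by 0.94 (adjusted p = 0.000198). Loxl2, which is known to cross-link type IV collagen, fell by 0.45 (adjusted p = 0.000517), Loxl3 fell by 0.35 (adjusted p = 0.0146), and the transglutaminase Tgm2 rose by 0.34 (adjusted p = 0.0031). Hyperoxia and room air libraries were likewise separate for Bmp1, Adamts14, Loxl2, Loxl3 and Tgm2, beside 11% of all tested genes. The call for Loxl3 ended without the 3 heart- or muscle-rich libraries.

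Of 13 proteins that bind fibrils 1 rose and 3 fell, with a median of 0.04. Ogn rose by 0.58 (adjusted p = 8.13e-05), while Prelp fell by 0.65 (adjusted p = 0.00152), Aspn by 0.44 (adjusted p = 0.00156) and Bgn by 0.31 (adjusted p = 0.00164), all small leucine-rich proteoglycans or their relatives. Of 15 other basement membrane proteins 3 rose and 1 fell, with a median of 0.13. Lama2, the laminin chain of muscle and mesenchyme, rose by 0.44 (adjusted p = 0.00156), and the heparan sulphate proteoglycan Agrn by 0.22 (adjusted p = 0.011). Nid2 fell by 0.41 (adjusted p = 0.0221), a call that ended without ATG hyperoxia library 1, saline hyperoxia library 1 or 3 or ATG room air library 1 or 3 (log2 -0.38 to -0.35, adjusted p 0.0529 to 0.0606). Hyperoxia and room air libraries were separate for Ogn, Aspn, Bgn, Lama2 and Agrn, and overlapped for Prelp and Nid2.

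Of 10 collagen receptors 1 rose and 2 fell, with a median of 0.03. Ddr2, the mesenchymal receptor for fibrillar collagen, fell by 0.42 (adjusted p = 0.00773), a call that ended without the 3 heart- or muscle-rich libraries. Ddr1, its epithelial counterpart, rose by 0.30 (adjusted p = 0.0468), and Mrc2, an uptake receptor for collagen, fell by 0.26 (adjusted p = 0.0303). The call for Ddr1 ended in 9 of the 12 fits that left out 1 library (log2 0.22 to 0.32, adjusted p 0.0527 to 0.0977), those without ATG hyperoxia 1 or 2, ATG room air 1 or 3, saline room air 1 or 3 or any saline hyperoxia library. That for Mrc2 ended in 8 (log2 -0.26 to -0.19, adjusted p 0.0545 to 0.0934), those without ATG or saline hyperoxia 1 or 2, ATG room air 1 or 3 or saline room air 1 or 2. None of the partner genes was called by edgeR in a comparison of ATG with saline or in the interaction; at an unadjusted p under 0.05 the folding enzymes held 2 in room air, 0 in hyperoxia, 1 averaged and 3 in the interaction, and the other lists held 0.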

How the data were processed

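Lung RNA of 12 libraries was sequenced, and the authors deposited raw counts per gene. The submitters' processing notes list Bowtie2, Cufflinks, DESeq and the mm10 build and give no version numbers. How reads were assigned to genes, with which annotation and with what use of strand, is not stated there. Groups were taken from the labels. Genes were filtered with filterByExpr (minimum count 10, minimum total 15), which left 15761 of 23478. One model with 4 group means and 8 residual degrees of freedom was fitted with edgeR 4.0.16 (TMM, quasi-likelihood test) in R 4.3.3, and 7 contrasts were tested with Benjamini-Hochberg adjustment over all tested genes at 0.05. The common biological coefficient of variation was 18.7%. Intervals are 95% intervals from this fit. Levels are TMM-scaled CPM, divided by the length of the GENCODE vM21 principal transcript where genes are compared. Gene positions are RefSeq spans on GRCm38.p6, the same assembly as mm10. Alternatives were DESeq2 1.42.0, limma-voom (limma 3.58.1), RLE size factors, no low-count filter, the compared groups alone, a replicate block, sex as a term, and left-out libraries. The procedure was tested on simulated data. Libraries of a group differed by more than counting noise, so none was counted as a duplicate. Per-library values are given for genes past the threshold and for a fixed set of abundant chains, and up to 4 genes are named per partner list; further genes were named after their values were seen. One gene that the naming rule selected is not reported here. The collagen genes, classes and lists were chosen with earlier results of these data known.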

Additional observations from a re-analysis of the deposited data

How the results depend on the processing

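Of the 8 collagen genes called when hyperoxia was averaged over injections, Col4a5, Col24a1 and Col6a4 stayed past the threshold in all 20 alternatives run. Col6a6 reversed, with a log2 fold change of 1.00 (adjusted p = 0.297) with all libraries and -1.28 (adjusted p = 0.0329) without the 3 heart- or muscle-rich libraries; the cause was not tested. The averaged count of 3 higher genes was 5 with DESeq2 and 1 to 5 over the fits that left out 1 library, and that of 5 lower genes was 3 to 7 over those fits. In ATG the count of 1 higher gene was 0 without the 2 Nppa-rich libraries and 0 to 1 with 1 library left out, and the count of 0 lower genes was 3 with DESeq2, 1 with limma-voom, 1 with the replicate block and 0 to 3 with 1 library left out. Over all genes, in either direction, 1447 were called without the 2 Nppa-rich libraries and 2356 with DESeq2. There were 1836 with limma-voom, 1763 with the replicate block and 1150 to 2045 with 1 library left out. In saline the count of 0 lower genes was 2 with DESeq2 and 1 with limma-voom, with no filter on low counts, with only the 6 samples compared, with the replicate block and without the 2 Nppa-rich libraries, and 0 to 1 with 1 library left out. Over all genes, in either direction, these settings called 1936, 1439, 1420, 1603, 1356 and 1536 in that order. With 1 library left out 740 to 1704 genes were called. All counts for ATG against saline and the interaction stayed at 0. Replicate numbers showed no clear pairing of the samples, though these values cannot exclude one. Same-numbered libraries correlated at -0.156 to 0.28, the highest being the heart-rich pair, and differently numbered libraries at -0.272 to 0.222. Of 12 libraries 5 correlated best with their own number. With the replicate block the averaged comparison called the same 8 genes. With RLE size factors, DESeq2 or limma-voom the median log2 fold change of all genes lay between -0.0125 and 0.0098 over the 7 comparisons. With 3 libraries a group, changes in genes of a few CPM are measured imprecisely.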
